A study of Mus musculus with 30 samples.

Results

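The genes described here are 45 mouse genes for fatty acid uptake, fatty acid oxidation and ketone use, from the 43629 genes in the count tables. They were listed by function, but with earlier results of these data known. Their counts beside the shares over all genes are therefore descriptive and not a test of the list. All 45 symbols matched 1 Ensembl gene each in the GRCm38 annotation, and all 45 had enough counts to be tested at every time. They were measured by RNA sequencing of 30 mouse heart libraries, 5 in each of 6 groups. The groups were myocardial infarction (MI) at days 2, 4 and 7 and sham surgery at days 2, 4 and 7, all from wild type C57BL/6J mice. MI was made by tying off a coronary artery through the opened chest under isoflurane on day 0, and sham mice had the same operation with the artery left untied. Age, sex and the part of the heart taken are not stated in the labels, nor is it stated that each library came from a separate animal, so p-values measure the spread between these libraries.

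The adult heart takes most of its energy from fatty acids. Lipoprotein lipase frees them from circulating triglyceride, membrane carriers and ligases bring them into the cell as acyl-CoA, and the carnitine shuttle moves long chains into mitochondria. There the beta-oxidation spiral shortens each chain by repeated rounds of dehydrogenation, hydration, a further dehydrogenation and cleavage, and its electrons reach the respiratory chain through the electron transferring flavoprotein. Ketone bodies, made in the liver, are turned back into acetyl-CoA in heart mitochondria. Many of these genes are known targets of the nuclear receptors of the PPAR and ERR families.

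The libraries held 7841930 to 14070017 counts assigned to genes. The 12 cardiomyocyte markers, sarcomere genes such as Myl2 and Tnnt2, summed to 41883 to 48415 CPM (counts per 1000000 counts of the library) in MI libraries and 45374 to 49584 CPM in sham libraries at day 2. At day 4 they summed to 35497 to 43419.9 CPM in MI libraries and 48427 to 59574 CPM in sham libraries, and at day 7 to 33537 to 40286 CPM in MI libraries and 48448 to 52444 CPM in sham libraries. Of the 12, 6, 11 and 10 were lower after MI at days 2, 4 and 7, and 1, 0 and 0 were higher, with median log2 fold changes of -0.24, -0.59 and -0.54. Over the same days 4, 8 and 8 of 8 macrophage markers were higher after MI and none lower. Of 8 fibroblast markers, 1, 5 and 8 were higher and 2, 1 and 0 lower. Neutrophil markers were higher for 6 of 6 tested at day 2, 5 of 5 at day 4 and 3 of 4 at day 7, and erythroid markers for 4, 0 and 5 of 5, with none lower. Of the brown fat markers tested, 2 of 3 were lower at day 2 with 1 higher, 3 of 4 at day 4 and 4 of 4 at day 7. That list holds Cox7a1 and Cox8b, which heart muscle is known to express too. The list's defining marker Ucp1 read 0 to 7.39 CPM in MI libraries and 2.93 to 33.1 CPM in sham libraries at day 7. What part these cell types had in the results that follow was not tested. Marker sums for lung epithelium, fat or fast skeletal muscle reached at least 50 CPM in some libraries of days 4 and 7. These were sham replicates 2 and 3 and MI replicate 4 at day 4, and sham replicates 1 to 3 and MI replicates 2 and 4 at day 7. Other libraries held such transcripts below that cut, with fat marker sums of 48.8, 45.5 and 48.1 CPM in MI replicates 1, 3 and 5 of day 7. In whole tissue, fewer cells of a type and less RNA per cell cannot be told apart. Day 2 libraries carry another identifier prefix in their labels than days 4 and 7, so a difference between day 2 and a later day within MI or within sham cannot be told apart from that identifier.

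Most of the 45 genes were lower after MI, fewer of them at day 2 than later. At day 2, 28 of 45 were lower in MI than in sham libraries and 1, the uncoupling protein gene Ucp2, was higher, by edgeR's quasi-likelihood test with Benjamini-Hochberg adjusted p under 0.05. Of all 14524 genes tested at day 2, 22.2% were lower and 24.1% higher. At day 4, 41 were lower and Ucp2 was again higher, while 25.2% of all genes tested were lower and 27.5% higher. At day 7, 42 were lower and 2, Ucp2 and Cpt1a, were higher, while 26.6% of all genes tested were lower and 28.4% higher. The median log2 fold change of the 45 was -0.38 at day 2, -1.05 at day 4 and -1.24 at day 7, beside medians over all genes tested of -0.01, 0.01 and 0.01. All 5 MI libraries lay below all 5 sham libraries for 15 of the 45 genes at day 2, 39 at day 4 and 39 at day 7, which held for 10.3%, 11.1% and 12.2% of all genes tested. None of the 45 was lower by at least 2-fold at day 2, 26 were at day 4 and 31 at day 7. The share of all genes past that 2-fold cut was not counted.

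**Figure D1:**
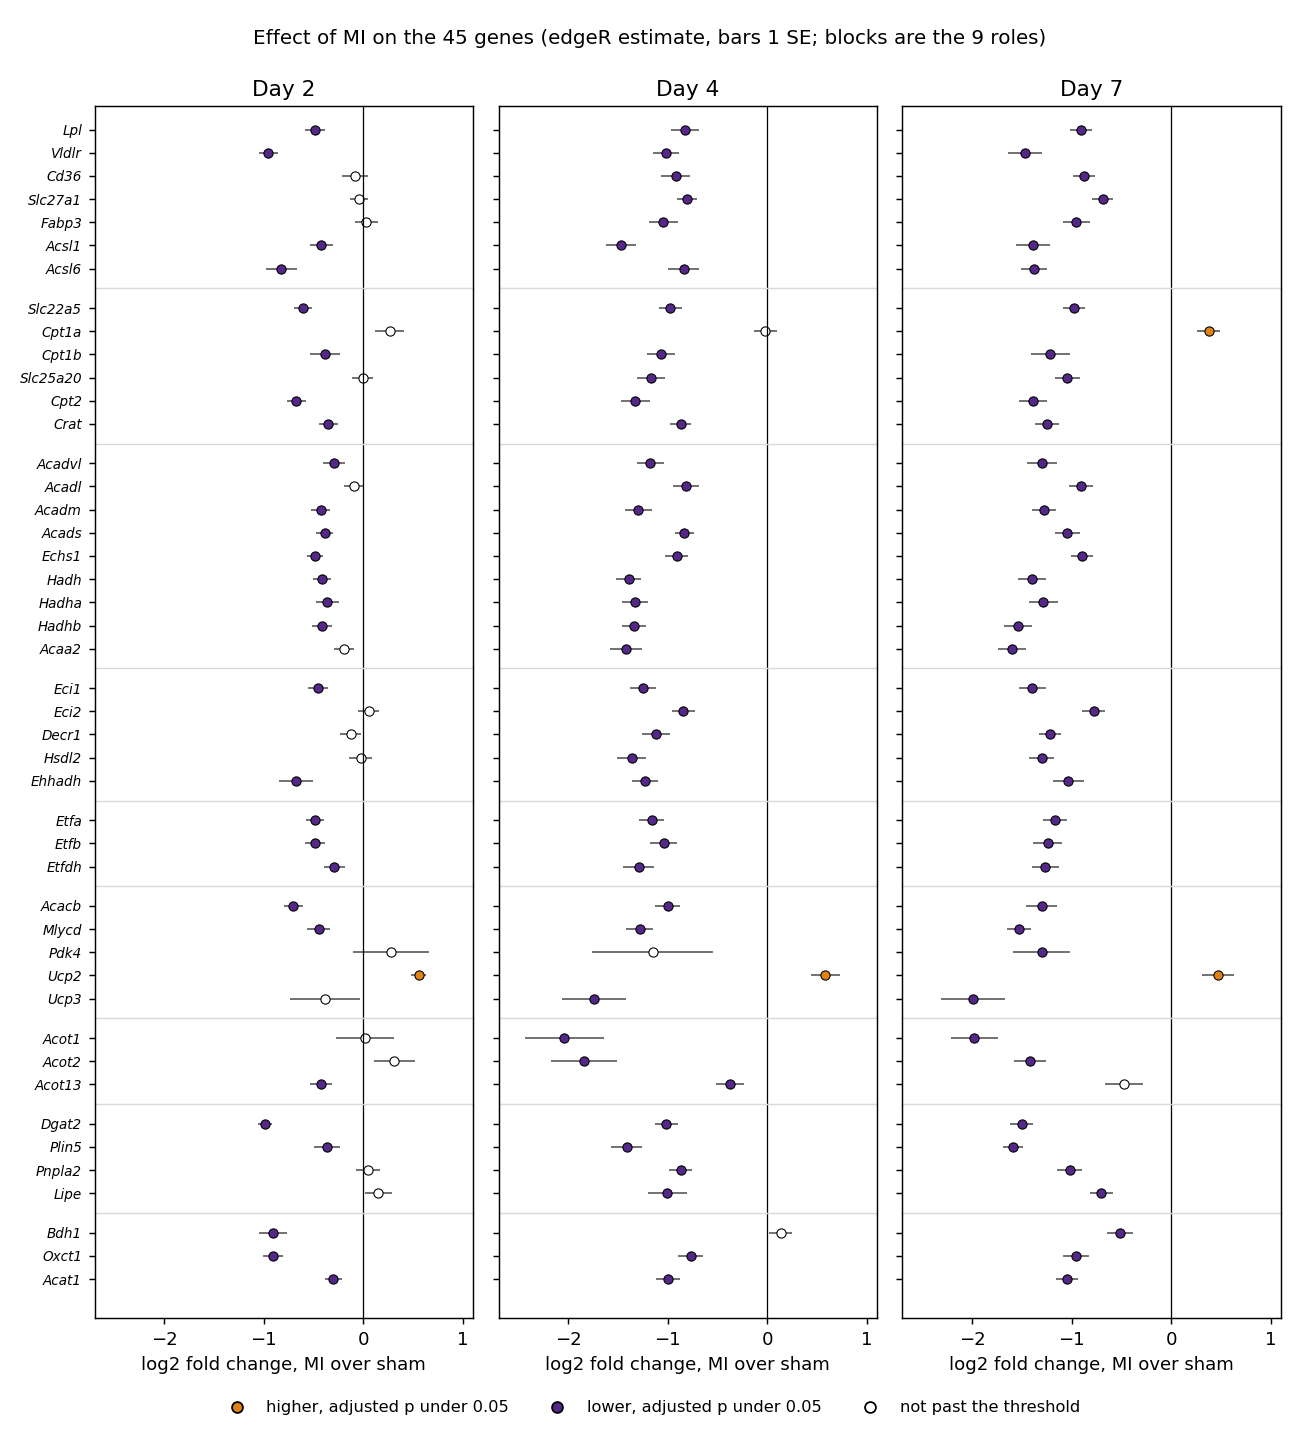
Log2 fold change of MI over sham (x axis) for each of the 45 genes (rows, in 9 blocks by role) at days 2, 4 and 7 (panels), as edgeR estimates with bars of 1 SE and 5 libraries per group. Purple points passed as lower (28, 41 and 42 genes), orange points as higher (1, 1 and 2 genes), and open points did not pass.

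Of the 45, 26 genes were lower at all 3 days, 14 at days 4 and 7 only, and Ucp2 was higher at all 3. Such patterns over days were not counted for all genes. The fold change was lowest at day 7 for 28 genes, at day 4 for 16 and at day 2 for Bdh1. The 45 genes together took 2.16 to 2.63% of the counts in MI libraries and 2.75 to 3.10% in sham libraries at day 2. Their share was 1.48 to 2.0% in MI libraries and 2.57 to 3.58% in sham libraries at day 4, and 1.3 to 1.72% in MI libraries and 2.56 to 2.93% in sham libraries at day 7. When libraries were scaled to the geometric mean of the 12 cardiomyocyte markers in place of all genes, the median over all genes tested moved to 0.26, 0.68 and 0.65 at days 2, 4 and 7. Of all genes called, 85.1%, 96.0% and 93.9% were then higher after MI at the 3 days, beside 52.0%, 52.2% and 51.6% on the usual scale. On that scale 9 of the 45 genes were lower and 8 higher at day 2, 29 lower and 4 higher at day 4, and 36 lower and 2 higher at day 7. Of all genes tested, 7.35%, 3.05% and 4.5% were lower and 42.0%, 73.7% and 68.7% higher on that scale at the 3 days. The medians of the 45 on that scale were -0.13, -0.38 and -0.60. Taking off the median over all genes gives -0.39, -1.06 and -1.25, but this undoes the rescaling and so is no separate result.

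Of the 7 genes that take up and activate fatty acids, 4 were lower after MI at day 2 and all 7 at days 4 and 7, with median log2 fold changes of -0.42, -0.92 and -0.95. Levels below are CPM of each library in the order of replicates 1 to 5, and fold changes come from the TMM-scaled fit (a scaling for composition), so that they differ somewhat from the ratio of the CPM. Lpl encodes lipoprotein lipase (ENSMUSG00000015568, chromosome 8, 68880491 to 68907448). At day 2 Lpl read 4891, 5549.6, 6061, 6209.5 and 5364 CPM in MI libraries, against 6859.9, 8136, 6932, 8088 and 6897 CPM in sham libraries. At day 4 Lpl read 3406, 4789, 4016, 3979.5 and 3721 CPM in MI libraries, against 5656, 6152, 5064, 6975 and 7277 CPM in sham libraries. At day 7 Lpl read 3942, 4090.3, 3541, 3607 and 3998 CPM in MI libraries, against 6468, 6021, 5646, 6614 and 6673 CPM in sham libraries. The groups did not overlap at any of the 3 days, and Lpl gave log2 fold changes of -0.48 ± 0.10, -0.82 ± 0.14 and -0.91 ± 0.11 at days 2, 4 and 7 (SE, n = 5; edgeR adjusted p = 0.00156, 0.000168 and 2.33e-05). Vldlr, which encodes the very low density lipoprotein receptor (ENSMUSG00000024924, chromosome 19, 27216484 to 27254231), was among the genes lowered most at day 2. Vldlr stood at 267, 322, 311, 289.8 and 352 CPM in MI libraries of day 2, against 511, 558, 536, 603 and 599 CPM in sham libraries. Vldlr stood at 228, 309.8, 262, 247 and 233 CPM in MI libraries of day 4, against 549.9, 373, 397, 416 and 558 CPM in sham libraries. Vldlr stood at 206, 301, 166, 235 and 343 CPM in MI libraries of day 7, against 611, 593, 526, 617 and 668 CPM in sham libraries. Every MI library was below every sham library at each day, with log2 fold changes of -0.96 ± 0.09, -1.02 ± 0.13 and -1.47 ± 0.17 at days 2, 4 and 7 (SE, n = 5; edgeR adjusted p = 2.17e-06, 1.97e-05 and 1.72e-05).

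Cd36, the main fatty acid translocase of the heart muscle membrane (ENSMUSG00000002944, chromosome 5, 17781690 to 17888801), was close between the arms at day 2. In MI libraries Cd36 read 1949.7, 1703, 2215, 2773 and 2574 CPM at day 2, against 2089, 2348, 2258, 2353 and 2169 CPM in sham libraries. In MI libraries Cd36 read 999.9, 1435, 1196, 1193 and 1036 CPM at day 4, against 2556, 1852, 1654, 1967 and 1793 CPM in sham libraries. In MI libraries Cd36 read 1139, 1022, 1025, 940.1 and 1209 CPM at day 7, against 1598, 1815, 1591, 1891 and 1666 CPM in sham libraries. The arms overlapped at day 2 and separated at days 4 and 7. Cd36 gave log2 fold changes of -0.09 ± 0.13, -0.92 ± 0.14 and -0.87 ± 0.11 at days 2, 4 and 7 (SE, n = 5; edgeR adjusted p = 0.618, 7.29e-05 and 2.68e-05). Slc27a1, a fatty acid transport protein, gave log2 fold changes of -0.04 ± 0.09, -0.80 ± 0.10 and -0.69 ± 0.10 at days 2, 4 and 7 (SE, n = 5; edgeR adjusted p = 0.734, 1.16e-05 and 8.6e-05). Acsl1, the main long-chain acyl-CoA synthetase of the heart (ENSMUSG00000018796, chromosome 8, 46471037 to 46536051), had a larger change at days 4 and 7. At day 2 Acsl1 read 774, 703, 740.5, 956 and 958 CPM in MI libraries, against 1131, 1105, 907, 1117 and 958 CPM in sham libraries. At day 4 Acsl1 read 469.9, 753, 693, 503 and 593 CPM in MI libraries, against 1792, 1455, 1402, 1518 and 1218 CPM in sham libraries. At day 7 Acsl1 read 309, 513, 318, 472 and 583 CPM in MI libraries, against 995, 989.7, 869, 1176 and 984 CPM in sham libraries. The Acsl1 groups overlapped only at day 2, and the gene gave log2 fold changes of -0.42 ± 0.12, -1.47 ± 0.15 and -1.39 ± 0.17 at days 2, 4 and 7 (SE, n = 5; edgeR adjusted p = 0.00736, 1.62e-06 and 2.5e-05). Acsl6, another acyl-CoA synthetase, was among the least abundant of the 45 (ENSMUSG00000020333, chromosome 11, 54303798 to 54364756). Acsl6 stood at 8.02, 13.4, 15.8, 9.1 and 9.03 CPM in MI libraries of day 2, against 19.2, 19.9, 17.5, 17.8 and 17.5 CPM in sham libraries. Acsl6 stood at 10.1, 15.8, 11.7, 10.2 and 10.9 CPM in MI libraries of day 4, against 17.1, 16.8, 20.7, 14.5 and 24.4 CPM in sham libraries. Acsl6 stood at 11.9, 13.8, 13, 10.2 and 16 CPM in MI libraries of day 7, against 28.4, 35.3, 24.9, 27.9 and 30.7 CPM in sham libraries. The groups overlapped only at day 4, where MI replicate 2 stood apart from the other 4 MI libraries. Acsl6 gave log2 fold changes of -0.83 ± 0.16, -0.84 ± 0.16 and -1.38 ± 0.13 at days 2, 4 and 7 (SE, n = 5; edgeR adjusted p = 0.000537, 0.000425 and 4.31e-06).

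Fabp3, the fatty acid binding protein of heart muscle cytosol (ENSMUSG00000028773, chromosome 4, 130308595 to 130315463), has a near-identical processed copy, Fabp3-ps1, on chromosome 10 (86731987 to 86732388, minus strand). Over the 402 coding bases that both hold, 3 differ. The copy took 737484 of the counts over the 30 libraries and Fabp3 142796, so the copy held 75.5 to 85.9% of the sum in every library. A stretch of 90 bases from coding positions 270 to 359 shows how little tells the 2 apart, with the differing bases in capitals.
Fabp3: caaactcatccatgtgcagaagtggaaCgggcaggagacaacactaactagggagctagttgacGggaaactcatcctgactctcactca
Fabp3-ps1: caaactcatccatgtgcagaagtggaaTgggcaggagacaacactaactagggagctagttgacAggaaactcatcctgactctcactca

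In MI libraries Fabp3 read 393, 336, 452, 447 and 476 CPM at day 2, against 327, 372, 440.0, 381 and 417 CPM in sham libraries. In MI libraries Fabp3 read 342, 427, 376, 435 and 301 CPM at day 4, against 861, 732, 542, 716 and 581 CPM in sham libraries. In MI libraries Fabp3 read 279, 323, 379, 296 and 446 CPM at day 7, against 554, 612, 640.2, 621 and 489 CPM in sham libraries. The Fabp3 groups overlapped at day 2 and not at days 4 and 7. As deposited, Fabp3 gave log2 fold changes of 0.03 ± 0.12, -1.05 ± 0.15 and -0.95 ± 0.13 at days 2, 4 and 7 (SE, n = 5; edgeR adjusted p = 0.854, 3.52e-05 and 6.12e-05). Summed with its copy, the gene gave log2 fold changes of 0.02 ± 0.12, -1.0 ± 0.16 and -0.97 ± 0.16 (SE; edgeR adjusted p = 0.892, 9.83e-05 and 0.00022), so the direction and calls at days 4 and 7 were the same for the gene and the sum. The level of Fabp3 itself is uncertain, since how reads were shared between the copies is not given in the sources used here. Scaled to the cardiomyocyte markers, 2, 3 and 5 of the 7 uptake and activation genes were lower at days 2, 4 and 7, and 1, 0 and 0 higher.

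**Figure D2:**
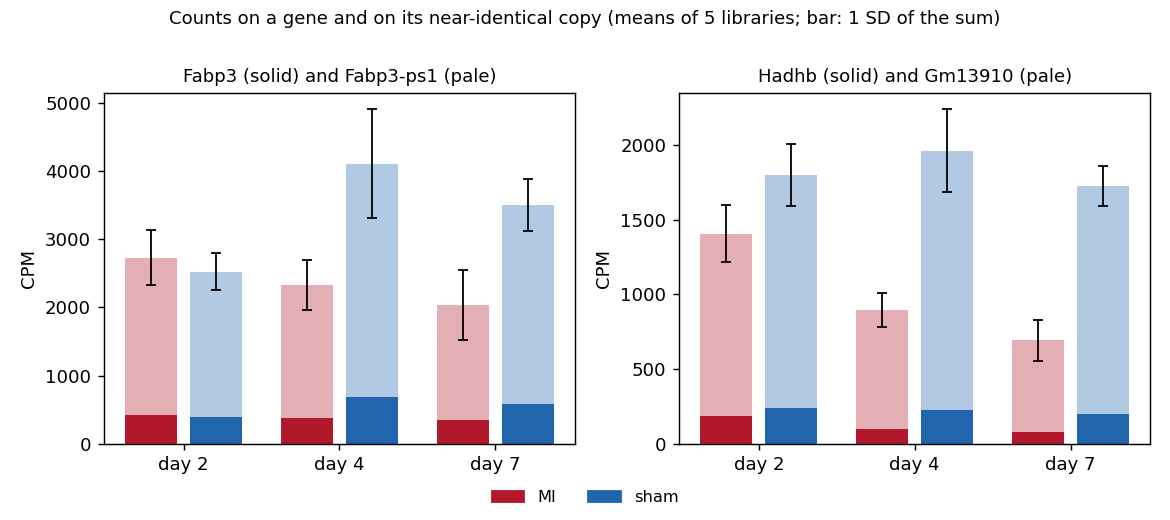
Mean CPM of Fabp3 and Hadhb (solid) with those of their processed copies Fabp3-ps1 and Gm13910 (pale) stacked on them, in MI (red) and sham (blue) libraries at days 2, 4 and 7 (bar, 1 SD of the sum, n = 5). The copies take 75.5 to 85.9% and 85.3 to 89.6% of the sums over single libraries.

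Of the 6 carnitine shuttle genes, 4 were lower after MI at day 2 and 5 at days 4 and 7, with medians of -0.37, -1.02 and -1.13. The exception was Cpt1a, the carnitine palmitoyltransferase of liver and other tissues (ENSMUSG00000024900, chromosome 19, 3322334 to 3385733). At day 2 Cpt1a read 71.6, 57, 50.7, 94.6 and 65.6 CPM in MI libraries, against 53.2, 64.7, 45.5, 53.5 and 49.7 CPM in sham libraries. At day 4 Cpt1a read 63.3, 68.9, 65.9, 79.6 and 93 CPM in MI libraries, against 82.3, 60.1, 70.5, 61.9 and 58.1 CPM in sham libraries. At day 7 Cpt1a read 64.2, 85.6, 101, 76.6 and 68.7 CPM in MI libraries, against 57.1, 54.6, 45.7, 56.7 and 52.4 CPM in sham libraries. Its groups overlapped at days 2 and 4, and at day 7 all MI libraries were above all sham libraries. Cpt1a gave log2 fold changes of 0.26 ± 0.15, -0.02 ± 0.12 and 0.38 ± 0.12 at days 2, 4 and 7 (SE, n = 5; edgeR adjusted p = 0.165, 0.891 and 0.0143), so it passed the test as higher at day 7 only. At day 4 the mean CPM was 74.1 ± 12.3 in MI libraries and 66.6 ± 10 in sham libraries (SD, n = 5), on the other side of 0 from the TMM-scaled value. At day 7 the 5 lung epithelium markers summed to 0.796 to 2047 CPM in MI libraries and 0.126 to 536 CPM in sham libraries. The 4 fat markers summed to 31.7 to 158 CPM in MI libraries and 26.3 to 135 CPM in sham libraries. The day 7 call of Cpt1a was lost in 4 of the alternatives tried, 1 of them the test against a fold of 1.5. The others left out the libraries with lung epithelium transcripts (log2 fold change 0.26, edgeR adjusted p = 0.301), with fat transcripts (0.30, edgeR adjusted p = 0.229) or with lung, fat or skeletal muscle transcripts (0.28, edgeR adjusted p = 0.339).

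Cpt1b encodes the muscle form of the same enzyme, which commits long chains to oxidation (ENSMUSG00000078937, chromosome 15, 89416405 to 89425863). Cpt1b stood at 36.9, 25.6, 32.8, 46.1 and 43.8 CPM in MI libraries of day 2, against 48.2, 53.1, 39.2, 48.8 and 39.1 CPM in sham libraries. Cpt1b stood at 22.9, 30.8, 29.9, 21.1 and 23.3 CPM in MI libraries of day 4, against 62, 45.4, 44.7, 48 and 38 CPM in sham libraries. Cpt1b stood at 13.3, 22, 11.6, 19.1 and 24.8 CPM in MI libraries of day 7, against 38.2, 32.1, 31.1, 46.2 and 35.8 CPM in sham libraries. The Cpt1b groups overlapped at day 2 and were apart at days 4 and 7. Cpt1b gave log2 fold changes of -0.39 ± 0.15, -1.07 ± 0.14 and -1.21 ± 0.19 at days 2, 4 and 7 (SE, n = 5; edgeR adjusted p = 0.0491, 2.05e-05 and 0.000168). Its day 2 call was lost on leaving out any 1 of 6 libraries, with log2 fold changes of -0.38 to -0.28. Of its 3372 exonic bases, 2744 are shared with a readthrough gene on the same strand, so its level is uncertain. Slc25a20, the carnitine acylcarnitine carrier of the inner membrane (ENSMUSG00000032602, chromosome 9, 108662088 to 108684641), did not pass at day 2 and was lower later. In MI libraries Slc25a20 read 235, 197, 273, 261 and 255 CPM at day 2, against 199, 226, 248, 226 and 253 CPM in sham libraries. In MI libraries Slc25a20 read 144, 171, 179, 183 and 139 CPM at day 4, against 424, 336, 261, 334 and 259 CPM in sham libraries. In MI libraries Slc25a20 read 142, 144, 107, 118 and 168 CPM at day 7, against 225, 243, 254, 275 and 225 CPM in sham libraries. Slc25a20 groups overlapped at day 2 only, with log2 fold changes of 0.00 ± 0.11, -1.17 ± 0.14 and -1.04 ± 0.12 at days 2, 4 and 7 (SE, n = 5; edgeR adjusted p = 0.974, 1.08e-05 and 1.79e-05). Cpt2, which rebuilds acyl-CoA inside the mitochondrion, gave log2 fold changes of -0.67 ± 0.09, -1.33 ± 0.14 and -1.39 ± 0.14 at days 2, 4 and 7 (SE, n = 5; edgeR adjusted p = 4.46e-05, 3.6e-06 and 7.49e-06). Slc22a5, the plasma membrane carnitine transporter, gave log2 fold changes of -0.60 ± 0.09, -0.97 ± 0.11 and -0.98 ± 0.11 at days 2, 4 and 7 (SE, n = 5; edgeR adjusted p = 7.23e-05, 6.76e-06 and 1.03e-05). Crat, carnitine acetyltransferase, gave log2 fold changes of -0.35 ± 0.09, -0.87 ± 0.11 and -1.25 ± 0.12 at days 2, 4 and 7 (SE, n = 5; edgeR adjusted p = 0.00625, 1.18e-05 and 5.84e-06). On the cardiomyocyte scale 2, 4 and 5 of the 6 shuttle genes were lower at days 2, 4 and 7, and 2, 1 and 1 were higher.

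Of the 9 genes of the beta-oxidation spiral, 7 were lower after MI at day 2 and all 9 at days 4 and 7, with medians of -0.39, -1.29 and -1.29. Acadm encodes medium-chain acyl-CoA dehydrogenase (ENSMUSG00000062908, chromosome 3, 153922357 to 153944632). At day 2 Acadm read 887, 1036, 1066, 1016 and 1153 CPM in MI libraries, against 1185, 1385, 1337, 1340.3 and 1271 CPM in sham libraries. At day 4 Acadm read 553, 833, 693, 702 and 597 CPM in MI libraries, against 1596, 1504, 1218, 1518 and 1486 CPM in sham libraries. At day 7 Acadm read 510.0, 663, 643, 581 and 742 CPM in MI libraries, against 1325, 1199.7, 1307, 1407 and 1399 CPM in sham libraries. Its groups did not overlap at any day, and Acadm gave log2 fold changes of -0.43 ± 0.09, -1.29 ± 0.13 and -1.28 ± 0.12 at days 2, 4 and 7 (SE, n = 5; edgeR adjusted p = 0.00172, 1.75e-06 and 3.85e-06). Acadl, the long-chain acyl-CoA dehydrogenase (ENSMUSG00000026003, chromosome 1, 66830839 to 66863277), was one of the 2 spiral genes that did not pass at day 2. Acadl stood at 1208, 1170.0, 1240.3, 1467 and 1472 CPM in MI libraries of day 2, against 1240.4, 1383, 1298, 1381 and 1272 CPM in sham libraries. Acadl stood at 728, 917, 807, 942 and 754 CPM in MI libraries of day 4, against 1660.0, 1268, 1065, 1259 and 1219.8 CPM in sham libraries. Acadl stood at 545, 729.8, 617, 663 and 763 CPM in MI libraries of day 7, against 1048, 978, 1069, 1207 and 1119 CPM in sham libraries. Acadl groups overlapped at day 2 and stood apart afterwards, with log2 fold changes of -0.09 ± 0.10, -0.82 ± 0.13 and -0.91 ± 0.12 at days 2, 4 and 7 (SE, n = 5; edgeR adjusted p = 0.47, 0.000104 and 3.08e-05). The other was Acaa2, the mitochondrial thiolase of the last step, which gave log2 fold changes of -0.19 ± 0.10, -1.41 ± 0.16 and -1.6 ± 0.14 at days 2, 4 and 7 (SE, n = 5; edgeR adjusted p = 0.134, 5.16e-06 and 2.53e-06).

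Hadha encodes the alpha subunit of the mitochondrial trifunctional protein, which carries out the last 3 steps for long chains (ENSMUSG00000025745, chromosome 5, 30118304 to 30155162). In MI libraries Hadha read 929.6, 965, 1029, 1233 and 1183 CPM at day 2, against 1244, 1487, 1136, 1430.2 and 1160.2 CPM in sham libraries. In MI libraries Hadha read 642, 837, 771, 726 and 726 CPM at day 4, against 2199.7, 1515, 1444, 1606 and 1474 CPM in sham libraries. In MI libraries Hadha read 432, 673, 506, 606 and 703 CPM at day 7, against 1264, 1126, 1064, 1385 and 1362 CPM in sham libraries. Sham replicate 1 of day 4 had the highest Hadha level, and the arms overlapped at day 2 only. Hadha gave log2 fold changes of -0.36 ± 0.11, -1.33 ± 0.13 and -1.29 ± 0.15 at days 2, 4 and 7 (SE, n = 5; edgeR adjusted p = 0.0174, 1.37e-06 and 1.31e-05). Leaving out sham replicate 4 at day 2 took away the day 2 call (log2 fold change -0.31, edgeR adjusted p = 0.0516).

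Hadhb, the beta subunit of the trifunctional protein (ENSMUSG00000059447, chromosome 5, 30155248 to 30184593), lies head to head with Hadha on chromosome 5, with 85 bases between the 2 genes. Hadhb also has a processed copy, Gm13910, on chromosome 2 (108948806 to 108950233, plus strand), which differs at 3 of 1428 coding bases. The copy took 386856 of the counts and Hadhb 53871, so 85.3 to 89.6% of the sum in each library lay on the copy. The stretch below runs over coding positions 156 to 245, with the differing base in capitals.
Hadhb: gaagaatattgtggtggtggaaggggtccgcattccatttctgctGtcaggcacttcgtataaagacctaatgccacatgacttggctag
Gm13910: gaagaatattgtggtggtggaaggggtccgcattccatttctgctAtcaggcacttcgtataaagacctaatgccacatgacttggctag

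Hadhb as deposited gave log2 fold changes of -0.42 ± 0.10, -1.34 ± 0.12 and -1.54 ± 0.14 at days 2, 4 and 7 (SE, n = 5; edgeR adjusted p = 0.00398, 4.98e-07 and 3.46e-06). Summed with the copy it gave log2 fold changes of -0.44 ± 0.12, -1.31 ± 0.13 and -1.52 ± 0.14 (SE; edgeR adjusted p = 0.0063, 1.32e-06 and 3.88e-06), with all 3 days passing as lower. The arms of Gm13910 alone did not overlap at days 4 and 7, and those of Fabp3-ps1 at day 4 only. Of the other spiral genes, Acadvl, for very long chains, gave log2 fold changes of -0.30 ± 0.11, -1.18 ± 0.14 and -1.29 ± 0.15 at days 2, 4 and 7 (SE, n = 5; edgeR adjusted p = 0.0377, 5.57e-06 and 1.55e-05). Its day 2 call was lost on leaving out any 1 of 6 libraries. Acads, for short chains, gave log2 fold changes of -0.39 ± 0.08, -0.84 ± 0.10 and -1.04 ± 0.12 at days 2, 4 and 7 (SE, n = 5; edgeR adjusted p = 0.00131, 5.01e-06 and 1.69e-05). Echs1, the enoyl-CoA hydratase of short chains, gave log2 fold changes of -0.48 ± 0.08, -0.91 ± 0.12 and -0.90 ± 0.11 at days 2, 4 and 7 (SE, n = 5; edgeR adjusted p = 0.00025, 1.41e-05 and 2.31e-05). Hadh, the dehydrogenase of short and medium chains, gave log2 fold changes of -0.42 ± 0.09, -1.39 ± 0.13 and -1.4 ± 0.14 at days 2, 4 and 7 (SE, n = 5; edgeR adjusted p = 0.00114, 7.27e-07 and 5.76e-06). Scaled to the cardiomyocyte markers, none of the 9 passed at day 2 in either direction, 7 were lower at day 4 and 8 at day 7.

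The 5 auxiliary and peroxisomal genes act on unsaturated chains or on chains shortened outside the mitochondrion. Of these, 2 were lower after MI at day 2 and all 5 at days 4 and 7, with medians of -0.13, -1.23 and -1.21. Decr1, the mitochondrial dienoyl-CoA reductase (ENSMUSG00000028223, chromosome 4, 15917240 to 15945507), was lower from day 4. At day 2 Decr1 read 475, 486, 512, 525 and 641 CPM in MI libraries, against 463, 559.9, 568, 567 and 548 CPM in sham libraries. At day 4 Decr1 read 257, 287, 282, 327 and 234 CPM in MI libraries, against 717, 523, 436, 534 and 454 CPM in sham libraries. At day 7 Decr1 read 180.1, 231, 205, 219.7 and 268 CPM in MI libraries, against 451, 417, 441, 475 and 449 CPM in sham libraries. Decr1 groups overlapped at day 2 and were apart later, with log2 fold changes of -0.13 ± 0.10, -1.12 ± 0.14 and -1.21 ± 0.11 at days 2, 4 and 7 (SE, n = 5; edgeR adjusted p = 0.339, 1.27e-05 and 3.46e-06). Ehhadh, the peroxisomal bifunctional enzyme (ENSMUSG00000022853, chromosome 16, 21761287 to 21787807), was of low abundance. Ehhadh stood at 6.38, 7.72, 7.64, 9.52 and 4.66 CPM in MI libraries of day 2, against 10.7, 11, 8.28, 13.3 and 11.1 CPM in sham libraries. Ehhadh stood at 7.14, 10.4, 9.51, 7.94 and 7.28 CPM in MI libraries of day 4, against 19.7, 16.2, 16.8, 17.7 and 17.3 CPM in sham libraries. Ehhadh stood at 9.32, 8.82, 6.19, 7.48 and 10.4 CPM in MI libraries of day 7, against 15.4, 13.7, 14.3, 13.8 and 17.9 CPM in sham libraries. Only the day 2 groups of Ehhadh overlapped, with log2 fold changes of -0.68 ± 0.17, -1.23 ± 0.13 and -1.03 ± 0.15 at days 2, 4 and 7 (SE, n = 5; edgeR adjusted p = 0.00493, 2.82e-06 and 9.66e-05). Eci1, an enoyl-CoA isomerase of mitochondria, gave log2 fold changes of -0.46 ± 0.10, -1.25 ± 0.13 and -1.39 ± 0.14 at days 2, 4 and 7 (SE, n = 5; edgeR adjusted p = 0.00171, 2.15e-06 and 5.84e-06). Eci2, a related isomerase, gave log2 fold changes of 0.05 ± 0.10, -0.84 ± 0.11 and -0.78 ± 0.11 at days 2, 4 and 7 (SE, n = 5; edgeR adjusted p = 0.693, 2.34e-05 and 6.74e-05). Hsdl2, a peroxisomal dehydrogenase-like protein, gave log2 fold changes of -0.03 ± 0.12, -1.36 ± 0.14 and -1.3 ± 0.13 at days 2, 4 and 7 (SE, n = 5; edgeR adjusted p = 0.874, 2.24e-06 and 5.06e-06). Relative to the cardiomyocyte markers 1, 4 and 4 of these 5 were lower at days 2, 4 and 7, and 1, 0 and 0 higher.

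All 3 genes that pass electrons to the respiratory chain were lower after MI at each day, with medians of -0.48, -1.16 and -1.24. Etfdh encodes the flavoprotein dehydrogenase that hands electrons to ubiquinone (ENSMUSG00000027809, chromosome 3, 79603788 to 79629500). In MI libraries Etfdh read 559, 524, 639.9, 676 and 716 CPM at day 2, against 724, 773, 661, 768 and 669.8 CPM in sham libraries. In MI libraries Etfdh read 333, 509, 465, 408 and 388 CPM at day 4, against 1214, 892, 717, 948 and 774 CPM in sham libraries. In MI libraries Etfdh read 250.1, 356, 289, 302 and 413 CPM at day 7, against 630.2, 629, 627, 791 and 689 CPM in sham libraries. Its arms overlapped at day 2 only, with log2 fold changes of -0.29 ± 0.11, -1.29 ± 0.16 and -1.26 ± 0.14 at days 2, 4 and 7 (SE, n = 5; edgeR adjusted p = 0.0324, 9.27e-06 and 1.07e-05). The Etfdh call at day 2 was lost on leaving out any 1 of 5 libraries. Etfa and Etfb encode the 2 subunits of the flavoprotein. Etfa gave log2 fold changes of -0.48 ± 0.09, -1.16 ± 0.13 and -1.17 ± 0.12 at days 2, 4 and 7 (SE, n = 5; edgeR adjusted p = 0.000443, 3.48e-06 and 8e-06), and Etfb gave log2 fold changes of -0.49 ± 0.10, -1.04 ± 0.13 and -1.24 ± 0.14 at days 2, 4 and 7 (SE, n = 5; edgeR adjusted p = 0.00107, 1.57e-05 and 1.46e-05). Etfb shares 678 of its 1164 exonic bases with other genes on its strand, so its level is uncertain. On the cardiomyocyte scale none of the 3 passed at day 2, and all 3 were lower at days 4 and 7.

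The next 5 genes set malonyl-CoA, which blocks carnitine palmitoyltransferase, the choice between glucose and fat, or mitochondrial uncoupling. Of these, 2 were lower after MI at day 2, 3 at day 4 and 4 at day 7, and Ucp2 was higher at all 3. Acacb encodes the acetyl-CoA carboxylase that makes malonyl-CoA at mitochondria (ENSMUSG00000042010, chromosome 5, 114146535 to 114250761). At day 2 Acacb read 274, 285, 328, 362 and 292 CPM in MI libraries, against 460.0, 509.8, 423, 497 and 472 CPM in sham libraries. At day 4 Acacb read 235, 329.6, 310.0, 226 and 246 CPM in MI libraries, against 559, 415, 506, 457 and 451 CPM in sham libraries. At day 7 Acacb read 165, 266, 195, 232 and 292 CPM in MI libraries, against 523, 457, 395, 545 and 545 CPM in sham libraries. No day showed overlap for Acacb, with log2 fold changes of -0.70 ± 0.10, -1.0 ± 0.12 and -1.3 ± 0.16 at days 2, 4 and 7 (SE, n = 5; edgeR adjusted p = 4.2e-05, 1.03e-05 and 1.86e-05). Mlycd, malonyl-CoA decarboxylase, takes malonyl-CoA away (ENSMUSG00000074064, chromosome 8, 119394878 to 119411102). Mlycd stood at 110.1, 108, 106, 139 and 148 CPM in MI libraries of day 2, against 137, 162, 173, 162 and 150.0 CPM in sham libraries. Mlycd stood at 74.1, 92.5, 82.8, 91.5 and 66.9 CPM in MI libraries of day 4, against 211, 182, 135, 185 and 162 CPM in sham libraries. Mlycd stood at 50.7, 63, 47.4, 53.9 and 77.4 CPM in MI libraries of day 7, against 141, 142, 153, 157 and 143 CPM in sham libraries. Mlycd overlapped between arms at day 2 only, with log2 fold changes of -0.45 ± 0.11, -1.28 ± 0.13 and -1.53 ± 0.12 at days 2, 4 and 7 (SE, n = 5; edgeR adjusted p = 0.0048, 2.33e-06 and 1.72e-06). Acacb, a gene for making malonyl-CoA, and Mlycd, for removing it, were thus both lower at all 3 days.

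Pdk4, the pyruvate dehydrogenase kinase that holds back glucose oxidation (ENSMUSG00000019577, chromosome 6, 5483351 to 5496309), varied widely between libraries of the same group. In MI libraries Pdk4 read 402, 198, 293, 917 and 729 CPM at day 2, against 330.4, 312, 449, 447 and 445 CPM in sham libraries. In MI libraries Pdk4 read 254, 469.7, 328, 347 and 273 CPM at day 4, against 1966, 302, 267, 341 and 417 CPM in sham libraries. In MI libraries Pdk4 read 139, 197, 101, 157 and 272 CPM at day 7, against 323, 261, 276, 616 and 379 CPM in sham libraries. Sham replicate 1 of day 4 stood far above the other 4 sham libraries, and the arms overlapped at every day. Pdk4 gave log2 fold changes of 0.28 ± 0.38, -1.15 ± 0.61 and -1.3 ± 0.29 at days 2, 4 and 7 (SE, n = 5; edgeR adjusted p = 0.578, 0.147 and 0.0022) and passed as lower at day 7 only. Without sham replicate 1 the day 4 value was -0.17 (edgeR adjusted p = 0.483).

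Ucp3, the uncoupling protein of muscle (ENSMUSG00000032942, chromosome 7, 100472990 to 100486432), had the lowest log2 fold change of the 45 at day 7. At day 2 Ucp3 read 18.2, 19.5, 9.02, 46.4 and 23.3 CPM in MI libraries, against 18.8, 29.3, 33.9, 27.2 and 35.8 CPM in sham libraries. At day 4 Ucp3 read 17.1, 32.2, 25.8, 19 and 18.5 CPM in MI libraries, against 125, 46.4, 45, 55.3 and 61.7 CPM in sham libraries. At day 7 Ucp3 read 12.7, 17, 3.88, 12.2 and 21.8 CPM in MI libraries, against 44.4, 40, 43.7, 46.1 and 58.1 CPM in sham libraries. Ucp3 arms overlapped at day 2 and not later, and the same sham replicate 1 of day 4 was the highest library. Ucp3 gave log2 fold changes of -0.38 ± 0.35, -1.74 ± 0.32 and -1.99 ± 0.33 at days 2, 4 and 7 (SE, n = 5; edgeR adjusted p = 0.401, 0.00135 and 0.000312), and without that library the day 4 value was -1.39 (edgeR adjusted p = 8.56e-05). Ucp2, a widely expressed relative that is known to be abundant in macrophages, lies 6904 bases from Ucp3 on chromosome 7 and went the other way (ENSMUSG00000033685, chromosome 7, 100493337 to 100502020). Ucp2 stood at 222, 188, 176, 209 and 202 CPM in MI libraries of day 2, against 123, 125, 129, 129 and 130.5 CPM in sham libraries. Ucp2 stood at 213, 139.8, 197, 227 and 214 CPM in MI libraries of day 4, against 145, 117, 142, 92.2 and 90.8 CPM in sham libraries. Ucp2 stood at 239, 178, 218, 172 and 171 CPM in MI libraries of day 7, against 121, 172, 119, 125 and 83.7 CPM in sham libraries. Every MI library was above every sham library at day 2, and the arms overlapped at days 4 and 7. Ucp2 gave log2 fold changes of 0.56 ± 0.08, 0.58 ± 0.15 and 0.47 ± 0.16 at days 2, 4 and 7 (SE, n = 5; edgeR adjusted p = 4.71e-05, 0.00395 and 0.021). The 8 macrophage markers summed to 395 to 607 CPM in MI libraries and 275 to 452 CPM in sham libraries at day 2. At day 4 they summed to 1048 to 1341 CPM in MI libraries and 359 to 597 CPM in sham libraries, and at day 7 to 767 to 1489 CPM in MI libraries and 306 to 471 CPM in sham libraries. None of the 8 was at 0 in any library, and their part in the Ucp2 result was not tested. The day 7 call of Ucp2 was lost without sham replicate 5 (log2 fold change 0.36) or MI replicate 1 (0.38). Among these 5 genes, scaled to the cardiomyocyte markers, 1, 3 and 4 were lower at days 2, 4 and 7, and Ucp2 was higher at each.

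**Figure D3:**
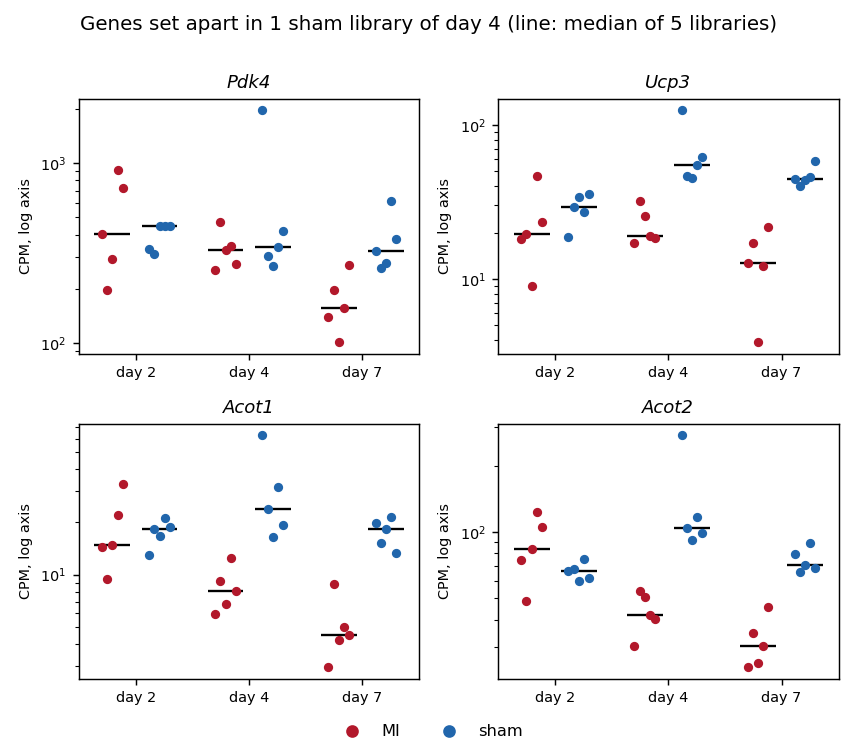
CPM on a log axis of Pdk4, Ucp3, Acot1 and Acot2 in each library (points; line, group median), with MI (red) left of sham (blue) at days 2, 4 and 7. Sham replicate 1 of day 4 is the highest of the 5 sham libraries for all 4 genes.

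The 3 acyl-CoA thioesterase genes release free fatty acid from acyl-CoA. Acot13 was lower after MI at day 2, all 3 at day 4, and Acot1 and Acot2 at day 7. Acot1, of the cytosol, and Acot2, of mitochondria, lie 15616 bases apart on chromosome 12. They are 95.06% identical over 1274 aligned transcript bases, with a longest shared run of 273 bases, and 9.845% of the 150-base windows of Acot1 occur in Acot2. Counts between them are therefore uncertain. In MI libraries Acot1 read 14.3, 9.43, 14.9, 22 and 33 CPM at day 2, against 12.9, 18.2, 16.6, 21 and 18.7 CPM in sham libraries. In MI libraries Acot1 read 5.92, 9.21, 6.78, 12.5 and 8.06 CPM at day 4, against 62.6, 23.8, 16.5, 31.6 and 19.2 CPM in sham libraries. In MI libraries Acot1 read 2.96, 8.82, 4.21, 5.04 and 4.53 CPM at day 7, against 19.8, 15.1, 18.3, 21.4 and 13.3 CPM in sham libraries. Acot1 arms overlapped at day 2 and were apart at days 4 and 7, with log2 fold changes of 0.01 ± 0.29, -2.04 ± 0.40 and -1.98 ± 0.24 at days 2, 4 and 7 (SE, n = 5; edgeR adjusted p = 0.972, 0.00184 and 1.92e-05). Its day 4 value was the lowest of the 45 genes. At day 2 Acot2 read 74.8, 48.5, 83.8, 123 and 106 CPM in MI libraries, against 66.6, 67.6, 59.8, 75.2 and 61.9 CPM in sham libraries. At day 4 Acot2 read 30.3, 53.7, 50.6, 41.9 and 40.2 CPM in MI libraries, against 275, 104, 92.3, 117 and 99.4 CPM in sham libraries. At day 7 Acot2 read 24.3, 34.9, 25.4, 30.3 and 45.4 CPM in MI libraries, against 79.5, 65.9, 70.5, 89.6 and 68.4 CPM in sham libraries. For Acot2 too the arms overlapped at day 2 only, with log2 fold changes of 0.31 ± 0.21, -1.84 ± 0.34 and -1.42 ± 0.16 at days 2, 4 and 7 (SE, n = 5; edgeR adjusted p = 0.24, 0.00124 and 1.32e-05). Sham replicate 1 of day 4 was the highest library for both. Without it, Acot1 gave -1.61 and Acot2 -1.43 at day 4 (edgeR adjusted p = 0.000162 and 8.7e-06). Acot13, a mitochondrial thioesterase of another family, gave log2 fold changes of -0.42 ± 0.11, -0.38 ± 0.14 and -0.47 ± 0.19 at days 2, 4 and 7 (SE, n = 5; edgeR adjusted p = 0.00499, 0.0325 and 0.0504). Its day 4 call was lost on leaving out any 1 of 5 libraries. Scaled to the cardiomyocyte markers, 0, 2 and 2 of the 3 were lower at days 2, 4 and 7. On that scale Acot2 was higher at day 2 (log2 fold change 0.55, edgeR adjusted p = 0.012) and Acot13 at day 4 (log2 fold change 0.31, edgeR adjusted p = 0.0225).

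The next 4 genes store or release triglyceride in the cell, of which 2 were lower after MI at day 2 and all 4 at days 4 and 7. Dgat2 makes triglyceride from diacylglycerol (ENSMUSG00000030747, chromosome 7, 99153658 to 99182719), and had the lowest log2 fold change of the 45 at day 2. Dgat2 stood at 318, 354, 316, 305 and 319 CPM in MI libraries of day 2, against 579, 605, 645, 586 and 585 CPM in sham libraries. Dgat2 stood at 245, 303, 265, 292 and 211 CPM in MI libraries of day 4, against 421, 501, 526, 471 and 434 CPM in sham libraries. Dgat2 stood at 191, 215, 164, 203 and 252 CPM in MI libraries of day 7, against 523, 469, 527, 518 and 499 CPM in sham libraries. Its arms did not overlap at any day, with log2 fold changes of -0.99 ± 0.07, -1.01 ± 0.11 and -1.5 ± 0.12 at days 2, 4 and 7 (SE, n = 5; edgeR adjusted p = 2.26e-07, 3.84e-06 and 1.23e-06). Plin5, a lipid droplet coat protein of oxidative tissue (ENSMUSG00000011305, chromosome 17, 56111601 to 56117596), was less changed at day 2. In MI libraries Plin5 read 110.3, 97.7, 95.7, 154 and 129.5 CPM at day 2, against 125, 156, 139, 152 and 141 CPM in sham libraries. In MI libraries Plin5 read 70, 102, 86.3, 77.9 and 69.4 CPM at day 4, against 198, 214, 162, 234 and 145 CPM in sham libraries. In MI libraries Plin5 read 47.3, 58.7, 44.3, 45.7 and 58.8 CPM at day 7, against 140.0, 132, 133, 142 and 124 CPM in sham libraries. Plin5 arms overlapped at day 2 only, with log2 fold changes of -0.37 ± 0.13, -1.41 ± 0.15 and -1.59 ± 0.10 at days 2, 4 and 7 (SE, n = 5; edgeR adjusted p = 0.0304, 5.1e-06 and 3.65e-07). The Plin5 call at day 2 was lost on leaving out any 1 of 5 libraries, with log2 fold changes of -0.34 to -0.31.

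Pnpla2 encodes adipose triglyceride lipase, which starts the breakdown of stored fat (ENSMUSG00000025509, chromosome 7, 141455198 to 141460743). At day 2 Pnpla2 read 553, 426, 636, 623 and 659 CPM in MI libraries, against 471, 603, 556, 521 and 495 CPM in sham libraries. At day 4 Pnpla2 read 236, 239, 265, 298 and 239 CPM in MI libraries, against 540.4, 389, 384, 380.1 and 372 CPM in sham libraries. At day 7 Pnpla2 read 188, 209, 257, 215 and 276 CPM in MI libraries, against 415, 363, 383, 455 and 408 CPM in sham libraries. The day 2 arms of Pnpla2 overlapped and the later ones did not, with log2 fold changes of 0.04 ± 0.12, -0.87 ± 0.12 and -1.02 ± 0.12 at days 2, 4 and 7 (SE, n = 5; edgeR adjusted p = 0.791, 2.3e-05 and 1.79e-05). Lipe, hormone-sensitive lipase (ENSMUSG00000003123, chromosome 7, 25379527 to 25398710), is also abundant in fat cells. Lipe stood at 54.4, 39.8, 51.3, 69.3 and 56.6 CPM in MI libraries of day 2, against 40.1, 57, 44.9, 45.9 and 42.6 CPM in sham libraries. Lipe stood at 29.8, 35.3, 39.6, 36.7 and 36.2 CPM in MI libraries of day 4, against 67.6, 59.8, 103, 45.2 and 42.5 CPM in sham libraries. Lipe stood at 31, 33.9, 31.9, 44.3 and 37.7 CPM in MI libraries of day 7, against 57.3, 59.1, 52.7, 42 and 43.4 CPM in sham libraries. Lipe arms overlapped at days 2 and 7 and were apart at day 4, where sham replicate 3 was the highest. Lipe gave log2 fold changes of 0.15 ± 0.14, -1.0 ± 0.19 and -0.70 ± 0.12 at days 2, 4 and 7 (SE, n = 5; edgeR adjusted p = 0.386, 0.000872 and 0.000247). The 8 adipocyte markers summed to 13.4 to 265 CPM in MI libraries and 34.4 to 1094 CPM in sham libraries at day 4, and to 173 to 891 CPM in MI libraries and 131 to 704 CPM in sham libraries at day 7. Their median log2 fold change was -1.14 at day 4 and -0.36 at day 7, and at day 4 Lep was at 0 in 1 MI library and Slc7a10 in 1 library of each arm. Sham replicates 2 and 3 of day 4 had marker sums of 409 and 1094 CPM, and sham replicates 1, 4 and 5 had 34.4, 37.4 and 61.6 CPM. The day 4 sums had medians of 178 CPM after MI and 61.6 CPM after sham surgery, opposite in direction to the -1.14. The part of the adipocyte markers in the Lipe result was not tested. Sham replicate 3 of day 4 also had the highest level of Adipoq, a fat cell gene, at 68.5 CPM. Without the libraries that hold fat transcripts, Lipe gave -0.75 at day 4 and -0.59 at day 7 (edgeR adjusted p = 0.00122 and 0.00961). Of the 4 genes, scaled to the cardiomyocyte markers, 1, 2 and 3 were lower at days 2, 4 and 7, and 2, 0 and 0 higher.

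Of the 3 genes of ketone use, all were lower at day 2, 2 at day 4 and all at day 7. Oxct1, the transferase that activates acetoacetate and commits it to use (ENSMUSG00000022186, chromosome 15, 4026383 to 4155344), was already lower at day 2. In MI libraries Oxct1 read 971, 1228, 942, 906 and 1095 CPM at day 2, against 1985, 1832, 1651, 1962 and 1628 CPM in sham libraries. In MI libraries Oxct1 read 1010.2, 1361, 1262, 988 and 1149.6 CPM at day 4, against 1611, 1728, 1512, 1904 and 1934 CPM in sham libraries. In MI libraries Oxct1 read 782, 1053, 795, 977 and 1160.0 CPM at day 7, against 1537, 1556, 1508, 1852 and 1626 CPM in sham libraries. Oxct1 arms did not overlap at any day, with log2 fold changes of -0.91 ± 0.10, -0.77 ± 0.12 and -0.96 ± 0.13 at days 2, 4 and 7 (SE, n = 5; edgeR adjusted p = 5.33e-06, 0.000113 and 4.65e-05). Bdh1, which turns 3-hydroxybutyrate into acetoacetate (ENSMUSG00000046598, chromosome 16, 31422280 to 31458901), was lower at day 2, not past the threshold at day 4 and lower again at day 7, though scaled to the cardiomyocyte markers its day 7 value turned to 0.11 (edgeR adjusted p = 0.431). At day 2 Bdh1 read 66.9, 63.1, 54.4, 60 and 46.6 CPM in MI libraries, against 139, 118, 79.6, 96.9 and 80.2 CPM in sham libraries. At day 4 Bdh1 read 141, 135, 168, 146 and 133 CPM in MI libraries, against 115, 105, 97.6, 112 and 152 CPM in sham libraries. At day 7 Bdh1 read 85.1, 97.4, 80.5, 81.3 and 121 CPM in MI libraries, against 107, 141, 92.6, 122 and 119 CPM in sham libraries. At day 2 the Bdh1 arms were apart, and at days 4 and 7 they overlapped. Bdh1 gave log2 fold changes of -0.91 ± 0.14, 0.14 ± 0.12 and -0.52 ± 0.13 at days 2, 4 and 7 (SE, n = 5; edgeR adjusted p = 0.000133, 0.35 and 0.00465). Without the libraries that hold lung, fat or skeletal muscle transcripts the day 7 value was -0.57 (edgeR adjusted p = 0.0526). Acat1, the thiolase of the last step of ketone use, gave log2 fold changes of -0.30 ± 0.08, -1.0 ± 0.12 and -1.05 ± 0.11 at days 2, 4 and 7 (SE, n = 5; edgeR adjusted p = 0.00853, 8.34e-06 and 8.3e-06). On the cardiomyocyte scale 2, 1 and 2 of the 3 were lower at days 2, 4 and 7, and 0, 1 and 0 higher.

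**Figure D4:**
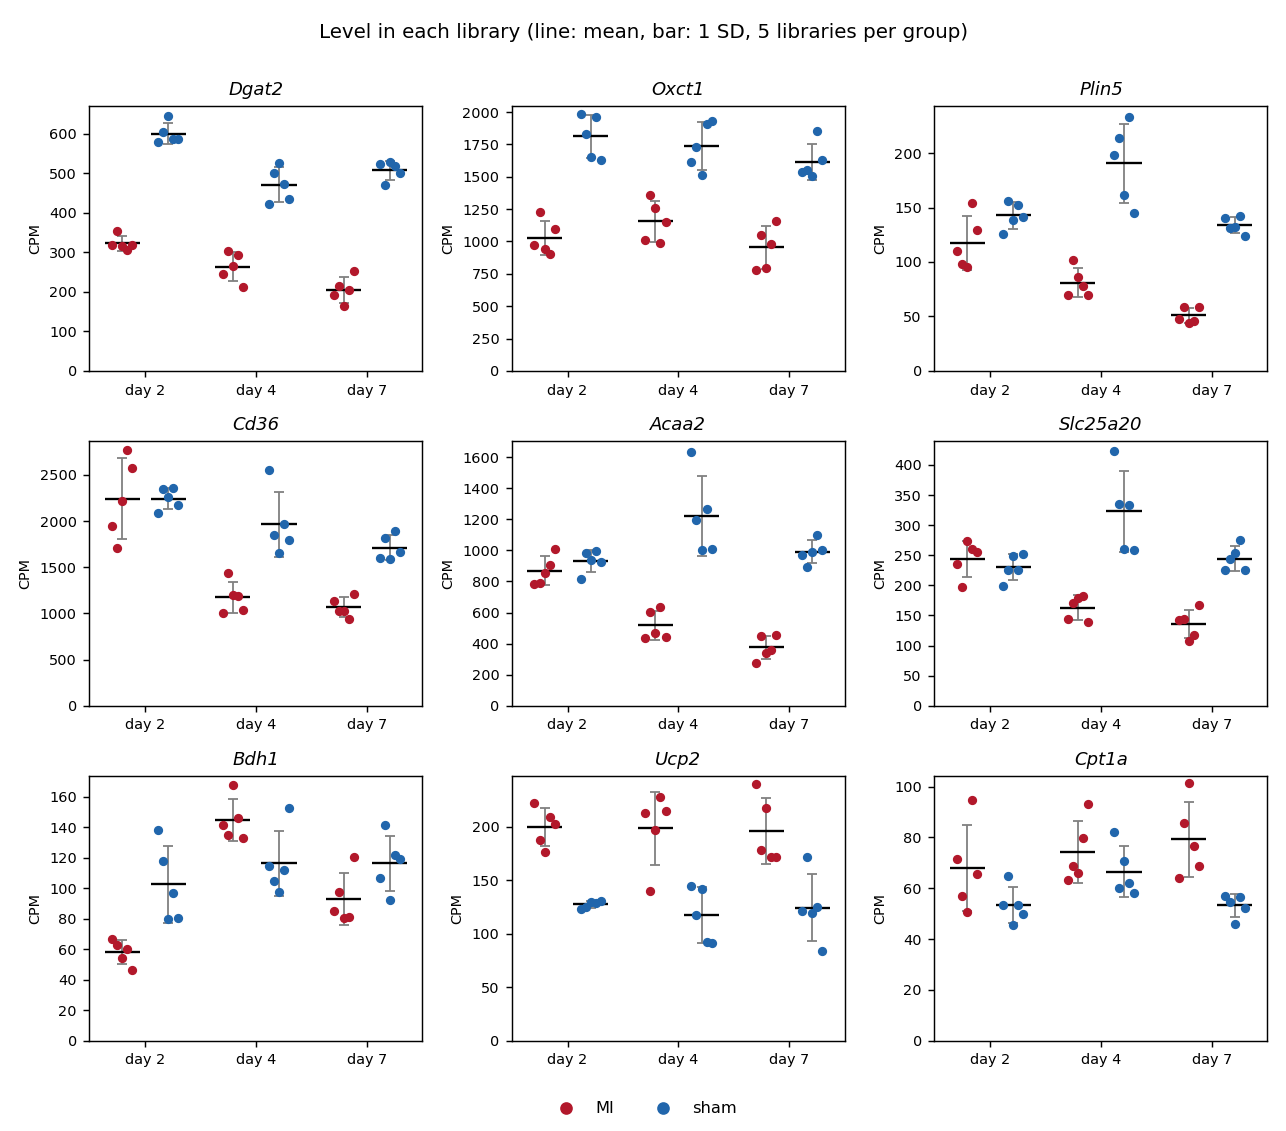
CPM of 9 of the genes in each library (points; line and bar, mean ± SD, n = 5), with MI (red) left of sham (blue) at days 2, 4 and 7. Dgat2 and Oxct1 are apart at all 3 days, Slc25a20 and Cd36 at days 4 and 7, and Bdh1 at day 2 only, while Ucp2 runs higher after MI.

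The size of the MI effect itself was compared between days in a fit of all 30 libraries. There a constant difference on the log scale that both arms of a day share cancels. A difference tied to the identifier prefix that alters the MI effect itself would not cancel. In comparisons with day 2 it cannot be told apart from time. From day 2 to day 4 the effect became lower for 27 of the 45 genes and higher for 1, Bdh1, while 2.29% of the 15537 genes tested became lower and 2.51% higher. The median change over the 45 was -0.79. Among the genes that passed, the lowest were Acot2 at -2.15 ± 0.37, Acot1 at -2.05 ± 0.47, Hsdl2 at -1.33 ± 0.19 and Acaa2 at -1.22 ± 0.20 (log2 difference of effects, SE; edgeR adjusted p = 0.00175, 0.0116, 0.000219 and 0.000814). Pdk4 at -1.43 ± 0.67 and Ucp3 at -1.35 ± 0.51 lay below Hsdl2 but did not pass (edgeR adjusted p = 0.228 and 0.128). Bdh1 stood at 1.05 ± 0.20 (edgeR adjusted p = 0.00259). For the uptake genes Fabp3, Cd36 and Acsl1 the effect changed by -1.07 ± 0.20, -0.83 ± 0.19 and -1.04 ± 0.22 (edgeR adjusted p = 0.0025, 0.00995 and 0.00595). Mean Fabp3 went from 388 to 686 CPM in sham libraries and from 421 to 376 CPM in MI libraries. Mean Acsl1 went from 1044 to 1477 CPM in sham libraries and from 826 to 602 CPM in MI libraries. Mean Cd36 went from 2243 to 1964 CPM in sham libraries and from 2243 to 1172 CPM in MI libraries. Summed with its copy, Fabp3 at day 4 over day 2 was at 0.69 in sham and -0.35 in MI (edgeR adjusted p = 0.00169 and 0.0698). For Lpl, Vldlr, Dgat2 and Oxct1, which were already lower at day 2, the changes were -0.33 ± 0.16, -0.06 ± 0.20, -0.02 ± 0.14 and 0.15 ± 0.17 and did not pass (edgeR adjusted p = 0.246, 0.911, 0.966 and 0.674). Crat and Cpt2 passed close to the threshold (edgeR adjusted p = 0.0463 and 0.0488), and for each the call was lost on leaving out any 1 of 18 libraries.

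**Figure D5:**
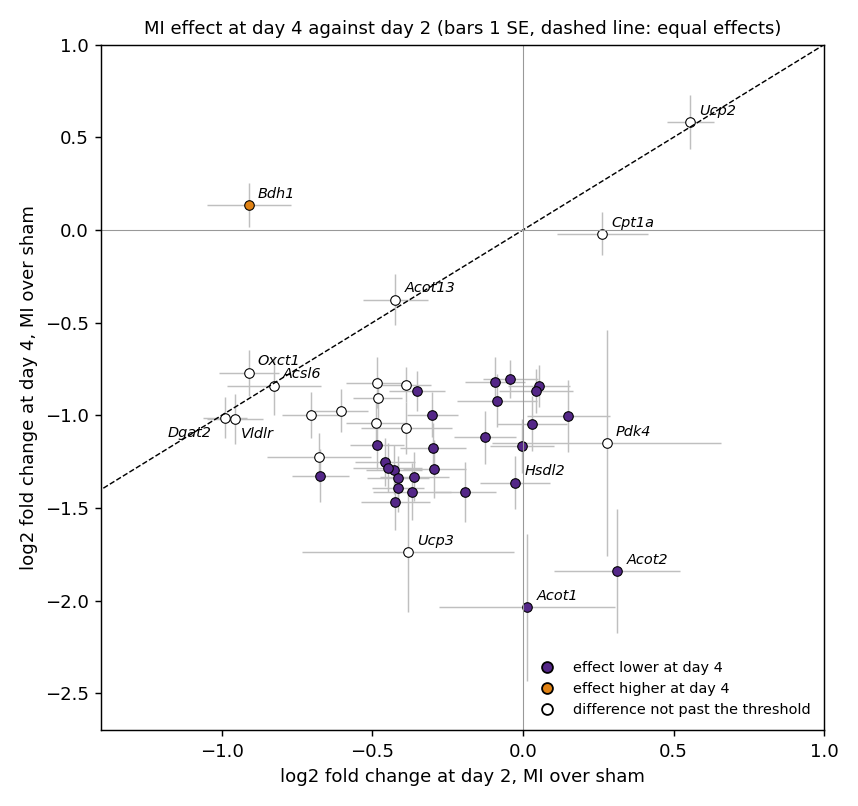
Log2 fold change of MI over sham at day 4 (y axis) against day 2 (x axis) for each of the 45 genes, with bars of 1 SE and a dashed line where both are equal. The 27 purple points, below the line, had a lower effect at day 4 and the orange point, Bdh1, a higher one by the test of the difference, while open points did not pass.

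From day 4 to day 7 the effect changed for none of the 45 genes by edgeR, with 6 of the 45 at an unadjusted p under 0.05, where 14.1% of all genes tested were, and 1 lower by DESeq2. Of all genes tested, 0.315% became lower and 0.702% higher over that step. Between days 2 and 7 the effect became lower for 33 of the 45 and higher for none, beside 9.11% lower and 10.1% higher among all genes tested. The cardiomyocyte markers' own effect became lower for 4 of 12 from day 2 to day 4, for none from day 4 to day 7, and for 6 from day 2 to day 7, and their part in these results was not tested. With libraries scaled to those markers, 19 of the 45 became lower and 3 higher from day 2 to day 4, and 22 lower and 1 higher from day 2 to day 7. With the same scaling 0.483% of all genes tested became lower and 32.0% higher from day 2 to day 4. From day 2 to day 7 these shares were 1.04% lower and 27.4% higher.

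Within sham libraries 13 of the 45 genes differed between days 4 and 2, 11 higher and 2 lower at day 4, where 11.7% of all genes tested were higher and 12.7% lower. Over the same step in sham, 8 of 8 fat markers (median log2 fold change 3.49), 5 of 5 erythroid markers (2.63) and 4 of 8 fibroblast markers (0.55) were higher, and their part was not tested. Between days 7 and 4 in sham, 1 did, Slc27a1, at -0.57 ± 0.10 (edgeR adjusted p = 0.0127), while 0.0708% of all genes were lower and 0.0515% higher. Within MI libraries 34 differed between days 4 and 2, where 24% of all genes were higher and 22% lower. Of the 34, Bdh1 was higher at day 4 and 33 were lower, the lowest being Pnpla2 at -1.28 ± 0.13 (edgeR adjusted p = 3.04e-09). Over that step in MI, 7 of 12 cardiomyocyte markers were lower and 2 higher, 6 of 6 neutrophil markers lower, and 7 of 8 macrophage, 7 of 8 fibroblast and 5 of 5 erythroid markers higher. Between days 7 and 4 in MI, 12 were lower and none higher, beside 6.29% lower and 6.26% higher among all genes. That count was 4 without MI replicate 2 of day 4, 7 without MI replicate 3 of day 4, 6 without MI replicate 1 of day 7, 7 without MI replicate 3 of day 7 and 21 without MI replicate 5 of day 7. Day 4 and day 2 libraries differ in their identifier prefix, which cannot be told apart from time here.

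Lists of related genes outside the 45 were counted the same way. Of all genes tested, 22.2%, 25.2% and 26.6% were lower and 24.1%, 27.5% and 28.4% higher after MI at days 2, 4 and 7. Of 13 further genes of mitochondrial oxidation, 10, 9 and 9 were lower after MI at days 2, 4 and 7 and 1, 2 and 2 higher. Slc25a42, the mitochondrial coenzyme A carrier, was at -1.58 ± 0.12 at day 4, and the acyl-CoA dehydrogenases Acad12 and Acad11 at -1.2 ± 0.09 and -1.0 ± 0.11 (log2, SE; edgeR adjusted p = 1.95e-07, 1.22e-07 and 3.48e-06). Of 11 peroxisomal genes, 6, 8 and 8 were lower and none higher. Among them Pex11a, of peroxisome division, was at -1.08 ± 0.15, Phyh, phytanoyl-CoA hydroxylase, at -0.99 ± 0.12, and the transporter gene Abcd3 at -0.95 ± 0.10 at day 4 (edgeR adjusted p = 2.81e-05, 1.15e-05 and 2.68e-06). Of 16 regulators of fuel use, 11, 12 and 13 were lower and 1 higher at each day. Klf15, a cardiac transcription factor of lipid metabolism, was at -1.46 ± 0.10 at day 4 (edgeR adjusted p = 7.88e-08). The coactivator genes Ppargc1a and Perm1 were at -1.04 ± 0.11 and -1.0 ± 0.13, and the nuclear receptor genes Ppara and Esrra at -0.87 ± 0.15 and -0.64 ± 0.10 (edgeR adjusted p = 2.31e-06, 2.41e-05, 0.000203 and 9.76e-05). At day 2 Ppargc1a was already at -0.83 ± 0.10 and Ppara at -0.82 ± 0.11 (edgeR adjusted p = 1.1e-05 and 4.11e-05).

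The promoter windows of the 45 were searched on both strands for motifs known from PPAR and ERR receptors. RefSeq windows of GRCm38.p6, from 250 bases before to 50 after the gene start, were found for 37 of the 45. The direct repeat AGGNCANAGGNCA, of the PPAR type, was in none of the 37, beside 0.451% of all 27025 genes with a window. The ERR motif TNAAGGTCA was in 1, Acsl6 (2.7%), beside 1.43% of all. The shorter AGGTCA, which the others can overlap, was in 9 (24.3%), beside 18.1% of all. A match is a description of letters, and its absence from a window says only that. Stretches of 100 bases around the matches of 4 members from different roles are given 5′ to 3′ on the strand of the gene, with AGGTCA, or TGACCT where the match is on the other strand, in capitals. The stretch of Acadm lies at chr3:153944794-153944893 (minus strand), that of Acsl6 at chr11:54303590-54303689 (plus strand), that of Plin5 at chr17:56117664-56117763 (minus strand) and that of Ucp3 at chr7:100472797-100472896 (plus strand).
Acadm: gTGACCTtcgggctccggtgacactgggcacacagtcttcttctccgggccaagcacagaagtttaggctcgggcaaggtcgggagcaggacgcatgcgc
Acsl6: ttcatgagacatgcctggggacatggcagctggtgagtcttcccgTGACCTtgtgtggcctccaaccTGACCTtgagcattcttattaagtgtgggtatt
Plin5: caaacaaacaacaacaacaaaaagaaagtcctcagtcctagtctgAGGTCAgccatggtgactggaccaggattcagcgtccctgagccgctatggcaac
Ucp3: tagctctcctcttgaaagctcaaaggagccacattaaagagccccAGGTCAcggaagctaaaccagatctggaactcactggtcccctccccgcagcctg

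These 4 genes were lower after MI at day 4, by 2.45-fold for Acadm, 1.79-fold for Acsl6, 2.66-fold for Plin5 and 3.34-fold for Ucp3. Of the other 5 with AGGTCA, Acacb, Acadvl, Cd36 and Echs1 were lower at day 4 and Cpt1a was not past the threshold (-0.02), beside 41 lower of all 45. On the RPKM scale, which divides CPM by exon length in kilobases, the levels of the 45 in sham libraries of day 2 ran in the order Lpl 705, Acadl 656, Cd36 625, Acaa2 615, Etfb 599.9, Oxct1 489 and Fabp3 471 at the top. At the bottom stood Cpt1b 13.6, Slc22a5 11.9, Ucp3 9.25, Lipe 7.83, Cpt1a 6.98, Acot1 4.46, Ehhadh 3.64 and Acsl6 1.85. Fabp3 is placed by the reads on the gene alone, and since gene and copy summed to 2525 ± 270.2 CPM in these libraries, against 388 CPM on the gene, its place is uncertain. The places of Cpt1b and Etfb are uncertain too. Of their exonic bases, 2744 of 3372 and 678 of 1164 are shared with other genes on the same strand. Gm44502, which overlaps Cpt1b, and Gm45233, which overlaps Etfb, were not among the genes counted.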

How the data were processed

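RNA from 30 mouse hearts or heart samples was made into directional NEBNext libraries and sequenced as paired reads of 150 bases, per the labels' protocols. For every library the authors deposited a table of raw counts by Ensembl identifier. The submitters' processing notes name bcl2fastq 2.20.0, featureCounts and the build GRCm38. Which aligner, featureCounts version and strand setting were used is not given in the sources used here. A GRCm38 annotation gave the symbols and positions of 97.5% of the 43629 identifiers. Totals ran from 7841930 to 14070017 counts per library, and no 2 libraries were duplicates.

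Samples were grouped by the labels' treatment and day. Counts were filtered with edgeR 4.0.16 in R 4.3.3 (filterByExpr, minimum count 10, minimum total 15), scaled by TMM and tested with the robust quasi-likelihood F test, two-sided, with Benjamini-Hochberg adjustment over all genes tested and a threshold of 0.05. The standard error (SE) of a log2 fold change is its size divided by the square root of F. Each day's MI and sham libraries were fitted alone (10 libraries). Effect differences and time contrasts came from 1 fit of all 30. CPM divide by the library total without TMM factors, and RPKM further by exon length. The scripts were tested on simulated data. Alternatives were DESeq2 1.42.0, median-ratio scaling, other filters, a replicate block, a 1.5-fold minimum, scaling to cardiomyocyte genes, and leaving out single libraries or those with other tissues' transcripts (lung markers Sftpc and Scgb1a1, or fat markers Adipoq, Retn, Plin1 and Cidec, summing to at least 50 CPM). Adding copies to their gene, the skeletal muscle library and the combined exclusion were chosen after seeing the data. Copies were found with blastn 2.17.0, and figures drawn with Python 3.11.15 and matplotlib 3.10.9.

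The members and gene lists were chosen with earlier results of these data known. Named genes were a set of 27 members covering each role, plus any member with the largest or smallest change among those called. From each related list up to 3 called genes of at least 1 CPM were taken by size of the day 4 change. Ppara, Ppargc1a and Esrra were taken in any case. One gene that this rule names is not reported here. Same-numbered replicates of the 2 arms gave correlations of -0.22 to 0.23. No clear pairing by number was seen, which does not exclude it. The main fits treated the arms as unpaired, with the replicate block as an alternative.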

Additional observations from a re-analysis of the deposited data

Results flagged for a closer look

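Within groups of 5 libraries, 11 of 270 groups (45 genes in 6 groups) had a highest or lowest library whose gap to its neighbour exceeded 0.71 of the group's range, which chance gives in about 1 in 20 groups. Sham replicate 1 of day 4 was the highest of its group for 5 of these genes, with 2200 CPM for Hadha, 1966 CPM for Pdk4, 125 CPM for Ucp3, 275 CPM for Acot2 and 540.4 CPM for Pnpla2. Sham replicate 2 of day 2 was highest for Acads at 287 CPM, and sham replicate 1 of day 2 was lowest for Decr1 at 463 CPM. MI replicate 2 of day 4 was highest for Acsl6 at 15.8 CPM, and MI replicate 2 of day 2 for Dgat2 at 354 CPM. Sham replicate 3 of day 7 was highest for Acot13 at 315 CPM, and sham replicate 3 of day 4 was lowest for Acat1 at 678 CPM.

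The MI effect differed between days by edgeR's test of the difference itself for the genes that follow, which are those that passed among the 27 members chosen for naming. Others of the 45, among them Hsdl2 and Acaa2, passed as well. The change from day 2 to day 4, in log2 units, was -2.15 for Acot2, -2.05 for Acot1, -1.16 for Slc25a20, -1.14 for Lipe and -1.07 for Fabp3. The change was -1.04 for Acsl1, -1.04 for Plin5, -0.99 for Etfdh, -0.99 for Decr1 and -0.97 for Hadha. It was -0.86 for Acadm, -0.83 for Cd36, -0.83 for Mlycd, -0.72 for Acadl and 1.05 for Bdh1.

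From day 2 to day 7 the effect also changed. The difference was -1.97 for Acot1, -1.71 for Acot2, -1.59 for Ucp3, -1.20 for Plin5 and -1.06 for Decr1. The difference was -1.06 for Mlycd, -1.02 for Slc25a20, -0.96 for Fabp3, -0.95 for Etfdh and -0.94 for Acsl1. It was -0.90 for Hadha, -0.83 for Acadm, -0.82 for Lipe, -0.81 for Cpt1b and -0.79 for Acadl. It was -0.77 for Cd36, -0.57 for Acacb and -0.49 for Dgat2. The Ucp3 call was lost in 17 of the alternatives tried, among them leaving out any 1 of 9 libraries (-1.59 to -1.15). The Acacb call was lost in 10, among them any 1 of 8 libraries (-0.56 to -0.49), and that of Cpt1b on leaving out any 1 of 4 libraries (-0.73 to -0.69).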

How the results depend on the processing

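Counts of the 45 genes kept within 1.5 times of those reported under median-ratio scaling, either other filter, copies added to their gene, and the replicate block. DESeq2 gave 1 gene with a lower effect at day 7 than at day 4, 6 changed genes in sham and 19 in MI between days 7 and 4. Of all genes tested, DESeq2 gave 1.24% with a lower and 1.46% with a higher effect at day 7 than at day 4. Between days 7 and 4 it gave 0.38% lower and 0.296% higher in sham, and 9.17% lower and 6.38% higher in MI. Against a fold of at least 1.5, no gene of the 45 was higher at day 2, 4 or 7 and 3 were lower at day 2. Of all genes tested, 5.85%, 10.4% and 12.3% were then higher at the 3 days and 2.47% lower at day 2. That test left 0 higher and 2 lower effects among the 45 from day 2 to day 4 and 5 lower from day 2 to day 7. Among all genes tested, 0.0515% were higher and 0.0708% lower from day 2 to day 4, and 0.167% lower from day 2 to day 7. The same test left 0 changed genes of the 45 in sham over either step, and in MI 6 from day 2 to day 4 and 0 from day 4 to day 7. Of all genes tested, 1.34% were higher and 2.96% lower in sham from day 2 to day 4, and 0 changed from day 4 to day 7. In MI 5.34% were higher and 3.96% lower over the first step, and 0.341% higher and 0.0257% lower over the second. Scaled to cardiomyocyte genes, 8 were higher and 9 lower at day 2, 4 were higher at day 4, 3 had a higher effect at day 4 and 1 at day 7 than at day 2, and 2 changed in sham between days 7 and 4. On that scale the direction turned for Slc25a20 at day 2 (0.25), Acot13 at day 4 (0.31) and Cpt1a at day 4 (0.65). It also turned for Bdh1 at day 7 (0.11) and Dgat2 from day 2 to day 4 (0.38). The scaling moves all genes of a comparison by about the same amount, so these turns are no separate result. The median over all genes tested was 0.26, 0.68 and 0.65 at days 2, 4 and 7 on that scale, and 0.42 for the effect from day 2 to day 4. The share of called genes with a higher effect was then 98.5% for day 4 over day 2, 50% for day 7 over day 4 and 96.3% for day 7 over day 2, beside 52.3%, 69.0% and 52.7%. Without libraries that hold lung transcripts, 1 gene was higher at day 7 and 0 changed in sham between days 7 and 4. Without those with fat transcripts the same counts were 1 and 0, with 5 changed in MI between days 7 and 4. Without those with lung, fat or skeletal muscle transcripts they were 1, 0 and 3.

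Leaving out each library in turn gave 1 to 2 higher and 23 to 29 lower genes at day 2, 1 to 2 and 40 to 41 at day 4, and 1 to 2 and 42 to 43 at day 7. The effect became lower for 25 to 30 genes from day 2 to day 4, 0 to 2 from day 4 to day 7 and 30 to 37 from day 2 to day 7, and higher for 1 to 1, 0 to 0 and 0 to 0. Changed genes numbered 9 to 18 in sham between days 4 and 2, 0 to 2 in sham between days 7 and 4, 32 to 36 in MI between days 4 and 2 and 4 to 21 in MI between days 7 and 4. Acot2 was a second higher gene at day 2 without MI replicate 2, and Bdh1 at day 4 without sham replicate 5. The effect was lower at day 7 than at day 4 for 1 gene without MI or sham replicate 5 of day 4 and 2 without MI replicate 5 of day 7. Over genes, comparisons and left-out libraries, 10541 values kept direction and call, 173 lost and 86 gained the call. A change of sign in a gene called in neither fit was not counted. With the replicate block, 28, 41 and 42 genes were lower at the 3 days and 25 had a lower effect at day 4 than at day 2 (Crat and Cpt2 lost), and Ucp3 was lost and Echs1 gained from day 2 to day 7. Depth limits genes of few counts such as Acsl6 and Ehhadh.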

Other observations

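Further lists outside the 45 genes were counted beside all genes tested, of which 24.1%, 27.5% and 28.4% were higher and 22.2%, 25.2% and 26.6% lower after MI at days 2, 4 and 7. Of 11 genes for handling fatty acids, 5, 5 and 4 were higher after MI at days 2, 4 and 7 and 1 was lower at each day. Angptl4, an inhibitor of lipoprotein lipase, was at 1.71 ± 0.42 at day 4 and Fabp5, a fatty acid binding protein known from skin and macrophages, at 1.57 ± 0.14, while Gpam, which starts glycerolipid synthesis in mitochondria, was at -1.07 ± 0.19 (log2 fold change, SE; edgeR adjusted p = 0.00685, 5.15e-07 and 0.000362). Of 12 lipid droplet genes, 5, 7 and 7 were lower and 3, 3 and 2 higher, the higher ones at about or below the share over all genes. Fitm2 and Fitm1, which help bud droplets from the endoplasmic reticulum, were at -1.15 ± 0.12 and -1.13 ± 0.14 at day 4, and Lipa, the lysosomal acid lipase, at 1.08 ± 0.12 (edgeR adjusted p = 1.67e-06, 1.47e-05 and 2.8e-06).

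Of 10 genes of fatty acid synthesis, 4, 3 and 3 were higher after MI at days 2, 4 and 7 and 0, 0 and 2 lower, the higher ones at days 4 and 7 being near the share over all genes. Elovl1, an elongase, was at 0.90 ± 0.12 at day 4, and the desaturase genes Fads2 and Fads1 at 0.53 ± 0.21 and 0.32 ± 0.13 (edgeR adjusted p = 2.5e-05, 0.0446 and 0.0429). Of 6 genes of ketone synthesis and transport, 1, 2 and 3 were lower and 1, 0 and 0 higher. Slc16a1, a monocarboxylate carrier that moves ketone bodies and lactate, was at -0.59 ± 0.10 at day 4 (edgeR adjusted p = 0.000116).

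Gm15285, a processed copy of Etfa, took 5.15 to 6.56% of the summed counts of gene and copy in day 2 libraries and 1.42 to 2.43% in day 4 and 7 libraries.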
